A study of Homo sapiens with 6 samples.

Results

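The TOP mRNA system was followed through LARP1, LARP1B, LARP4, LARP4B, PABPC1, PABPC4, TPT1, NAP1L1 and RACK1 on the polysomes of breast cancer cells under low oxygen. These genes were taken by symbol from a deposited table of 30726 genes, in which all 9 members were present. Hypoxic cells were kept at 1% oxygen for 8 hours and normoxic cells at 21% oxygen. The groups were SUM1315 hypoxia and SUM1315 normoxia (a triple negative line), SKBR3 hypoxia and SKBR3 normoxia (luminal, HER2-positive), and T47D hypoxia and T47D normoxia (luminal A), each line of wild-type genotype per the labels and each condition with 1 library. All 6 libraries were made from RNA isolated from sucrose gradient polysomes of cells treated with cycloheximide, which holds ribosomes on mRNA. The series asks how hypoxia affects the translation of transcripts.

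TOP mRNAs begin with a C followed by an unbroken stretch of pyrimidines at the very 5 prime end, and they encode ribosomal proteins and many translation factors. LARP1 is a La-related protein that binds this end and the cap. When the growth kinase complex mTORC1 is inactive, LARP1 holds TOP mRNAs off ribosomes and protects them from decay, and mTORC1 relieves this by phosphorylating LARP1. PABPC1 covers poly(A) tails, joins them to the initiation complex at the cap, and its own mRNA is a TOP mRNA.

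The TOP end is what defines 4 of the 9 genes, so the starts are shown first. Each line below is 30 bases of the RefSeq annotation (GRCh38.p14), 10 before and 20 from the annotated start, written 5′ to 3′ on the coding strand. Capitals mark the longest unbroken run of C and T letters in the window, or the first of them where several are equally long, as in TPT1 and LARP1B. For genes with several annotated starts the first listed is shown, and which start these cells used was not measured.
TPT1: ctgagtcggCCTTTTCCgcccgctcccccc
NAP1L1: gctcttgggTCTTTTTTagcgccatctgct
RACK1: gCTTTTCTCTCTCTCTTTCactgcaaggcg
LARP1: CTCCgccgccagaggctgagtcatcgctgc
LARP1B: CTCCgcgggcagttaccagctttggctgct
LARP4: gcaggggaggagccgggTCCactgccgggt
LARP4B: ccggaagtgggagctgtgtgTTCTCatgcg

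These windows lie at chr13:45341164-45341193 (TPT1, minus strand), chr12:76084666-76084695 (NAP1L1, minus), chr5:181243887-181243916 (RACK1, minus), chr5:154682969-154682998 (LARP1, plus), chr4:128061302-128061331 (LARP1B, plus), chr12:50400875-50400904 (LARP4, plus) and chr10:931686-931715 (LARP4B, minus). In TPT1 and NAP1L1 the marked run was 8 letters long and began 1 base before the annotated start. TPT1 had another run of 8 letters, unmarked, from position 13 to the end of the window. In RACK1 the marked run was 18 letters long, a length that 0.454% of 27305 genes reached. It began at position -9, so part of it lies upstream of the annotated start. The LARP windows held runs of 3 to 5 letters at the starts shown. In LARP1 and LARP1B the marked run began at position -10 and ended before the annotated start. LARP1 had up to 7 letters among its 4 annotated starts, the first and second of which lie upstream of the gene in GENCODE 29. The LARP1 window shown ends at 154682998, and that gene starts at 154712902. A run of 8 or more C and T letters was found in 12.6% of the 27305 genes on the coding strand, and a run of 8 or more A and G letters, which is the same on the other strand, in 10.3%. Such a C and T run was present in 50 of the 63 ribosomal protein genes matched by symbol (79.4%) and in 9 of the 12 other non-ribosomal TOP genes matched. No window is shown for PABPC1 and PABPC4.

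Values in the table were taken as RPKM, read counts divided by gene length and by library size, a unit read from the values themselves. Not every value rests on whole reads, since AL138963.3, antisense to TPT1, was listed at 3.89e-35 in hypoxic SUM1315. A value of 1 RPKM equalled an estimated 21.7 to 33.4 counted reads or pairs for each kilobase, as read from the steps between low values. From 61.9% to 65.7% of the low values used lay on these steps. LARP1B, the lowest of the 9 genes in each library, rested by this estimate on 21.0 to 90.2 reads per kilobase. The libraries detected 9675 to 10842 genes at 1 RPKM or above, and libraries of 1 line correlated at 0.972 to 0.980. Of 3 markers listed for each line, 1 is shown here, and it was highest in its own line. VIM was at 1161 and 407 RPKM in hypoxic and normoxic SUM1315 and at 4.96 to 9.17 RPKM elsewhere. ERBB2 was at 743 and 615 RPKM in hypoxic and normoxic SKBR3 and at 5.34 to 8.76 RPKM elsewhere. PGR was at 9.94 RPKM or more in both T47D libraries and at no more than 0.0282 RPKM elsewhere. The other markers are not given here. The keratin KRT8, 1 of 4 epithelial genes listed, was at 0.198 and 0.288 RPKM in hypoxic and normoxic SUM1315, against 73.1 RPKM or more in the other lines. Of 7 leukocyte, stromal and endothelial genes, PTPRC, CD3E and PECAM1 stayed at or below 0.0952 RPKM in all libraries, whereas SUM1315 held CD68 at 44.3 to 45.6 RPKM, COL1A1 at 91.7 to 119 RPKM and COL1A2 at 16.5 to 29.2 RPKM. SKBR3 held CD68 at 5.51 to 5.88 RPKM and CDH5 at 0.620 to 0.970 RPKM. The part of these genes in the results was not tested.

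Under hypoxia the 9 mRNAs took 2 directions. All 4 La-related protein mRNAs and TPT1 were lower in hypoxia in each of the 3 lines, while PABPC1, PABPC4 and NAP1L1 were higher in each, and RACK1 went both ways. None of the 9 passed limma at an adjusted p under 0.05 over the 10253 genes tested, and 4 of them (PABPC1, PABPC4, TPT1 and NAP1L1) had an unadjusted p under 0.05, as did 26.3% of all genes tested. By adjusted p, 4.12% of all genes tested were called higher and 2.26% lower in hypoxia. A log2 ratio above 0 in all 3 lines was found in 23.5% of tested genes and a ratio below 0 in all 3 lines in 25.2%. The values of all 9 overlapped between the hypoxic and normoxic groups over the 3 lines. Complete separation was seen in 3.96% of tested genes. Polysome RNA alone cannot tell a smaller amount of an mRNA per cell from a smaller share of it on ribosomes.

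**Figure D1:**
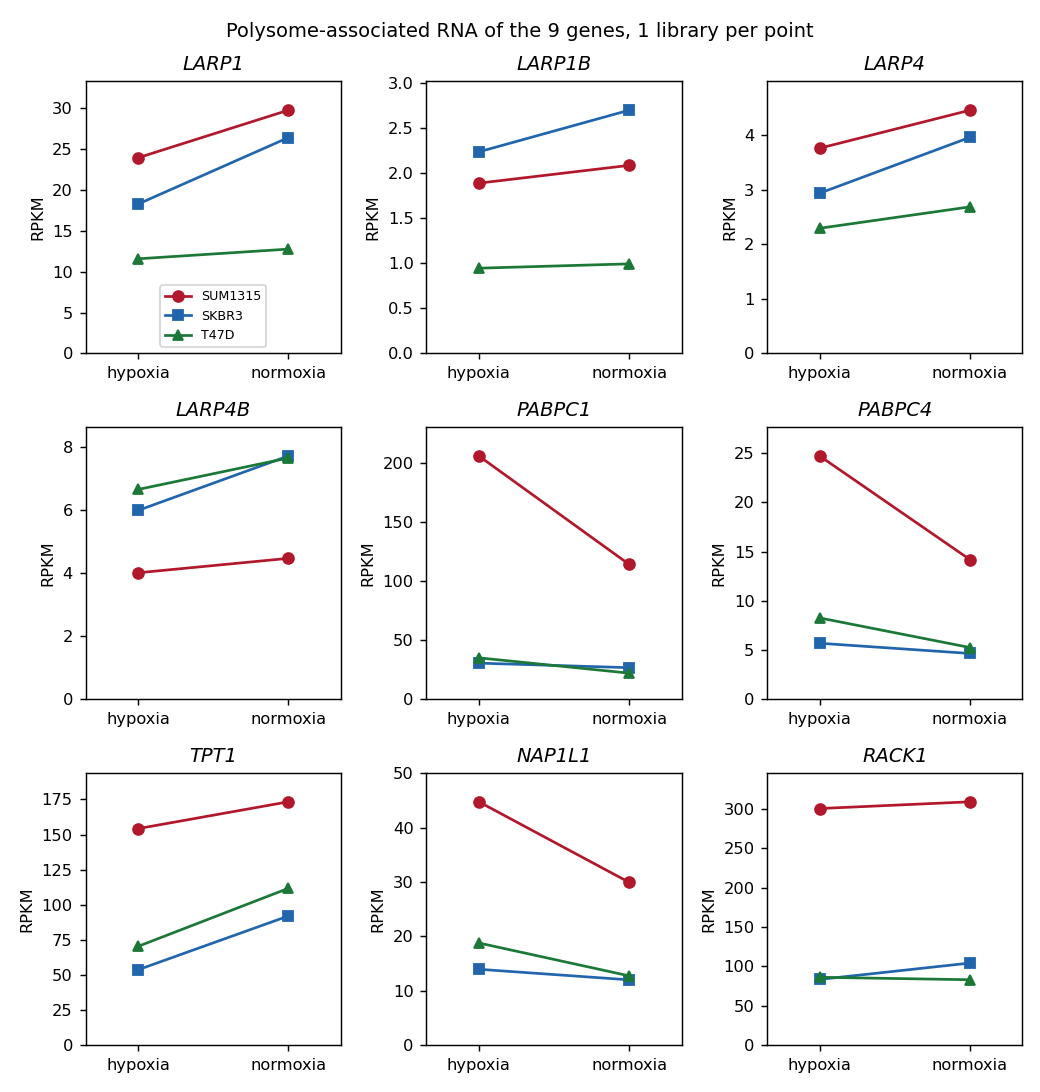
RPKM of the 9 genes in hypoxia (left) and normoxia (right), with 1 point per library and a line joining the 2 libraries of each cell line. PABPC1, PABPC4 and NAP1L1 are higher in hypoxia in each line, and TPT1 and the 4 LARP genes lower, and SUM1315 stands above the other lines for PABPC1 and RACK1.

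LARP1, the cap and TOP binding protein itself, maps to chromosome 5, 154712902 to 154817607 (GENCODE 29 on GRCh38, plus strand). Its mRNA was at 24.0 (hypoxia) and 29.8 RPKM (normoxia) in SUM1315, 18.3 (hypoxia) and 26.4 RPKM (normoxia) in SKBR3, and 11.6 (hypoxia) and 12.8 RPKM (normoxia) in T47D. Hypoxia was thus the lower condition in each line, with SKBR3 showing the widest gap and T47D the narrowest. As a percentage of normoxia the hypoxic level was 80.4% (SUM1315), 69.2% (SKBR3) and 90.7% (T47D). The log2 fold change on log2(RPKM + 1) was -0.31 ± 0.15 (SE, n = 3 lines, limma adjusted p = 0.21, unadjusted 95% interval -0.65 to 0.02). The difference did not pass the test.

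LARP1B, the paralog of LARP1 (chromosome 4, 128061268 to 128222931, plus strand), was the scarcest of the 9 mRNAs. It was at 1.89 (hypoxia) and 2.09 RPKM (normoxia) in SUM1315, 2.24 (hypoxia) and 2.70 RPKM (normoxia) in SKBR3, and 0.945 (hypoxia) and 0.993 RPKM (normoxia) in T47D. Its log2 fold change was -0.11 ± 0.12 (adjusted p = 0.57), smaller than its SE. LARP1 made up 89.1% to 92.7% of the summed RPKM of the pair in hypoxia and 90.7% to 93.5% in normoxia, so LARP1 was the main form in all 6 libraries. Its share was 0.91 percentage points lower in hypoxia on average (SD 0.66 over the 3 lines), and lower in each line.

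LARP4 and LARP4B bind poly(A)-binding protein, LARP4 also binds poly(A) itself, and both are known to stabilise mRNAs. LARP4 (chromosome 12, 50392383 to 50480004, plus strand) was at 3.76 (hypoxia) and 4.45 RPKM (normoxia) in SUM1315, 2.93 (hypoxia) and 3.96 RPKM (normoxia) in SKBR3, and 2.29 (hypoxia) and 2.68 RPKM (normoxia) in T47D. LARP4B (chromosome 10, 806914 to 931705, minus strand) was at 4.01 (hypoxia) and 4.47 RPKM (normoxia) in SUM1315, 5.996 (hypoxia) and 7.73 RPKM (normoxia) in SKBR3, and 6.66 (hypoxia) and 7.66 RPKM (normoxia) in T47D. Both were lower in hypoxia in every line, and SKBR3 again had the widest gap. The log2 fold changes were -0.23 ± 0.12 for LARP4 (adjusted p = 0.27) and -0.21 ± 0.13 for LARP4B (adjusted p = 0.34), and neither passed. The share of LARP4 in the pair differed between lines, at 48.3% in hypoxic and 49.9% in normoxic SUM1315, 32.9% in hypoxic and 33.9% in normoxic SKBR3, and 25.6% in hypoxic and 25.9% in normoxic T47D. It was 0.97 percentage points lower in hypoxia on average (SD 0.60).

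PABPC1, the main cytoplasmic poly(A)-binding protein (chromosome 8, 100685816 to 100722809, minus strand), had the highest fold change of the 9 genes on log2(RPKM + 1). With a pseudocount of 0.1 in place of 1, PABPC4 was slightly higher (0.575 against 0.570 for PABPC1). PABPC1 mRNA was at 206 (hypoxia) and 114 RPKM (normoxia) in SUM1315, 30.4 (hypoxia) and 26.6 RPKM (normoxia) in SKBR3, and 34.9 (hypoxia) and 21.96 RPKM (normoxia) in T47D. Each hypoxic library was above its normoxic partner, steeply in SUM1315 (180% of normoxia) and T47D (159%) and by less in SKBR3 (114%). The log2 fold change was 0.56 ± 0.17 (adjusted p = 0.076, unadjusted 95% interval 0.18 to 0.94). Without SKBR3 it was 0.74 (adjusted p = 0.043), and without SUM1315 it was 0.42 (adjusted p = 0.34). Over all its alternatives the adjusted p lay between 0.043 and 1.00. Of the 50-base words in the principal PABPC1 transcript of GENCODE release 29, 11.8% also occur in transcripts of genes elsewhere, mostly of PABPC3. This share of sequence is not a measure of error in the RPKM, and its effect on the PABPC1 value was not tested. PABPC3 itself was listed at no more than 0.0428 RPKM.

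PABPC4, a second cytoplasmic poly(A)-binding protein first described in activated T cells and platelets (chromosome 1, 39560816 to 39576790, minus strand), had a lower level. It was at 24.7 (hypoxia) and 14.2 RPKM (normoxia) in SUM1315, 5.68 (hypoxia) and 4.64 RPKM (normoxia) in SKBR3, and 8.25 (hypoxia) and 5.25 RPKM (normoxia) in T47D. The order of the lines by response was that of PABPC1: 174% of normoxia in SUM1315, 157% in T47D and 122% in SKBR3. The log2 fold change was 0.52 ± 0.15 (adjusted p = 0.065, unadjusted 95% interval 0.19 to 0.86). It passed without SKBR3 (0.66, adjusted p = 0.042) and when the level filter was raised to 5 RPKM (adjusted p = 0.0499), a filter that left 7 of the 9 genes, and its adjusted p lay between 0.042 and 1.00 over the alternatives. Of the summed RPKM of the pair, PABPC1 made up 89.3% in hypoxic and 88.9% in normoxic SUM1315, 84.3% in hypoxic and 85.1% in normoxic SKBR3, and 80.9% in hypoxic and 80.7% in normoxic T47D.

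NAP1L1, a histone chaperone whose mRNA is of the TOP class (chromosome 12, 76036587 to 76085033, minus strand), was at 44.8 (hypoxia) and 29.9 RPKM (normoxia) in SUM1315, 13.9 (hypoxia) and 12.0 RPKM (normoxia) in SKBR3, and 18.8 (hypoxia) and 12.7 RPKM (normoxia) in T47D. Hypoxia was the higher condition in each line, and SKBR3 moved least, as it did for both PABPC genes. The log2 fold change was 0.43 ± 0.15 (adjusted p = 0.11) and did not pass. Its paralog NAP1L4 had -0.10 ± 0.14 (adjusted p = 0.68).

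TPT1, the translationally controlled tumour protein and a textbook TOP mRNA (chromosome 13, 45333471 to 45341370, minus strand), had the lowest fold change of the 9. It was at 154 (hypoxia) and 173 RPKM (normoxia) in SUM1315, 53.6 (hypoxia) and 91.9 RPKM (normoxia) in SKBR3, and 70.3 (hypoxia) and 112 RPKM (normoxia) in T47D. In SKBR3 and T47D the hypoxic level was 58.3% and 63.0% of normoxia, and in SUM1315 it was 89.0%. The log2 fold change was -0.53 ± 0.17 (adjusted p = 0.085, unadjusted 95% interval -0.91 to -0.15), close to the median of the ribosomal protein mRNAs given below. The antisense gene TPT1-AS1 reached at most 0.785% of TPT1 in every library.

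RACK1, a scaffold protein of the small ribosomal subunit (chromosome 5, 181236909 to 181248096, minus strand), was the most abundant of the 9 by mean RPKM. It was at 301 (hypoxia) and 309 RPKM (normoxia) in SUM1315, 83.3 (hypoxia) and 104 RPKM (normoxia) in SKBR3, and 86.0 (hypoxia) and 82.9 RPKM (normoxia) in T47D. The hypoxic level was lower in SKBR3 (80.0% of normoxia) and close to normoxia in SUM1315 (97.2%) and T47D (104%). The log2 fold change was -0.10 ± 0.16 (adjusted p = 0.70, unadjusted 95% interval -0.45 to 0.25), and without SKBR3 it was 0.0063. The antisense gene CTC-338M12.4 reached 4.57% of RACK1.

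**Figure D2:**
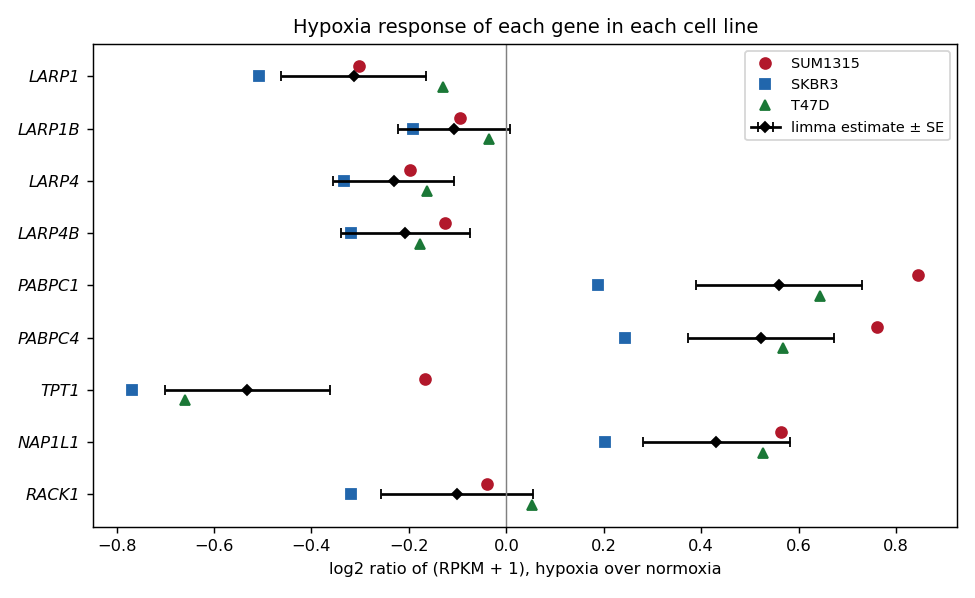
Log2 ratio of RPKM + 1, hypoxia over normoxia, for each gene in SUM1315 (circles), SKBR3 (squares) and T47D (triangles), with the limma estimate and its SE in black. PABPC1, PABPC4 and NAP1L1 lie right of 0 in all 3 lines, the LARP genes and TPT1 left of 0, and RACK1 on both sides.

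Set in the whole table, the responses had different weight in each line. In SUM1315 the log2 ratios of PABPC1 and PABPC4 stood above those of 97.7% and 96.9% of the tested genes, and in SKBR3 above 75.9% and 79.8%. TPT1 stood above 2.22% of genes in SKBR3 and 5.17% in T47D, but above 27.1% in SUM1315. LARP1 was lowest in rank in SKBR3, above 8.30% of genes, against 14.3% in SUM1315 and 34.3% in T47D. These ranks set single libraries against each other, without replication inside a line.

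Other TOP mRNAs were set beside the 4 in the list (PABPC1, TPT1, NAP1L1 and RACK1). Of 79 cytosolic ribosomal protein mRNAs, 31 fell, none rose and 48 did not pass with limma, and 75 had a fold change below 0. The median was -0.56 on the log2 scale, against -0.0067 over all 10253 genes tested, of which 2.26% fell and 4.12% rose. The list is led by RPL26, at -1.07 ± 0.20 (adjusted p = 0.015), and RPL27A, at -0.90 ± 0.16 (adjusted p = 0.013), both of the large subunit. The count that fell was 5 without SKBR3 and 12 without T47D. Ribosomal protein genes held 6.57% to 8.77% of the RPKM sum in hypoxic libraries and 10.0% to 11.7% in normoxic ones. Of 18 other non-ribosomal TOP mRNAs, 3 rose, none fell and 15 did not pass, with 10 fold changes above 0 and 8 below and a median of 0.13. These were the elongation factor EEF2 at 1.17 ± 0.19 (adjusted p = 0.010), the initiation factor EIF4B at 0.81 ± 0.15 (adjusted p = 0.018) and EIF3D, a cap-binding subunit of eIF3, at 0.64 ± 0.16 (adjusted p = 0.039). EIF4B did not pass once T47D was left out (adjusted p = 0.058), and EIF3D not without SKBR3 (0.080) or T47D (0.15). EIF3D also missed the threshold with a pseudocount of 5 (adjusted p = 0.060), by median-ratio scaling (0.055) and after rescaling without ribosomal protein genes (0.051). Without T47D the count of risers was 1 and the median of that list 0.05.

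**Figure D3:**
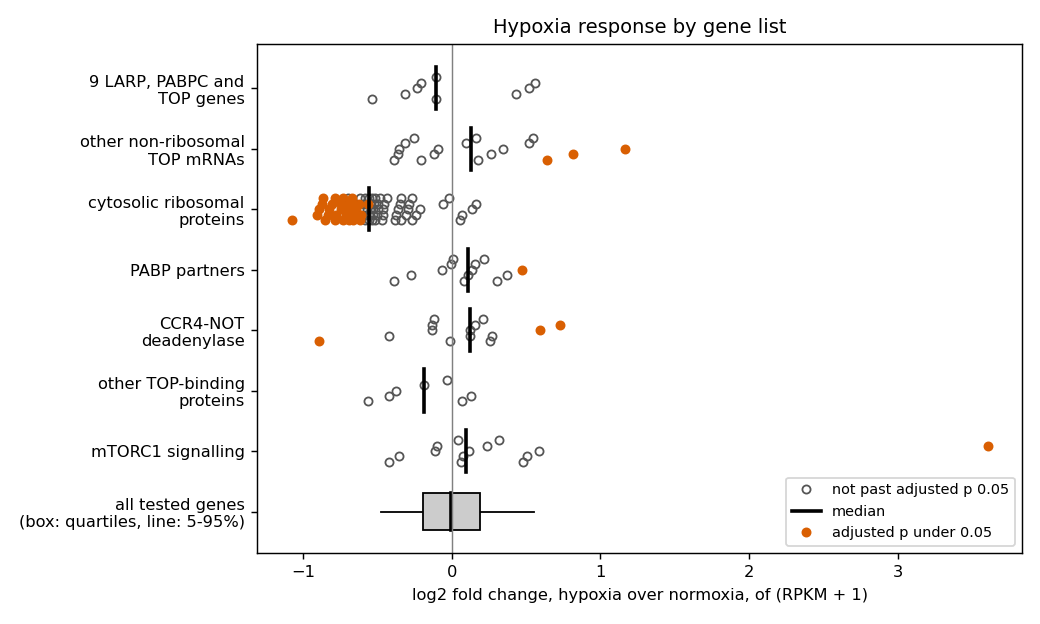
Log2 fold change, hypoxia over normoxia, of each tested gene by list, with medians as black bars, calls at adjusted p under 0.05 filled, and quartiles and the 5 to 95% range of all tested genes at the bottom. Ribosomal protein mRNAs center on -0.56, other TOP mRNAs on 0.13, and the 9 genes spread from -0.53 to 0.56.

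The 4 TOP mRNAs ran in order of coding length, a pattern noticed in these data and given as a description. TPT1 has 516 coding bases in its principal GENCODE transcript, RACK1 951, NAP1L1 1173 and PABPC1 1908, and their log2 fold changes run in that order, at -0.53, -0.10, 0.43 and 0.56. Over all 22 non-ribosomal TOP mRNAs tested the Spearman correlation of coding length with log2 fold change was 0.73 (Pearson 0.77 on log2 length). Taken line by line the Spearman value was 0.59 (SUM1315), 0.64 (SKBR3) and 0.79 (T47D). These 22 genes share the same 6 libraries and are not independent. Those of 500 to 1000 coding bases had 6 of 7 fold changes below 0. Those of 1000 to 1500 had 3 of 9 below 0, and those of 1500 or more had 1 of 6. Over all tested genes the counts below 0 in these bins were 1541 of 2447, 1406 of 2251 and 1593 of 3789. Among the 79 ribosomal protein mRNAs, with a median of 453 coding bases, the correlation was 0.03 (SUM1315 0.17, SKBR3 0.10, T47D -0.25). The longest of them, RPL3 and RPL4, are the 2 ribosomal protein mRNAs over 1000 coding bases, and they had fold changes of 0.06 and 0.07. Across the 9440 tested genes with a coding transcript the correlation was 0.16 (SUM1315 0.15, SKBR3 0.24, T47D 0.04). Over all tested genes the medians by coding length were 0.05 (under 500), -0.09 (500 to 1500) and 0.05 (1500 or more). The sources used here do not say which gradient fractions were pooled as polysomes.

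**Figure D4:**
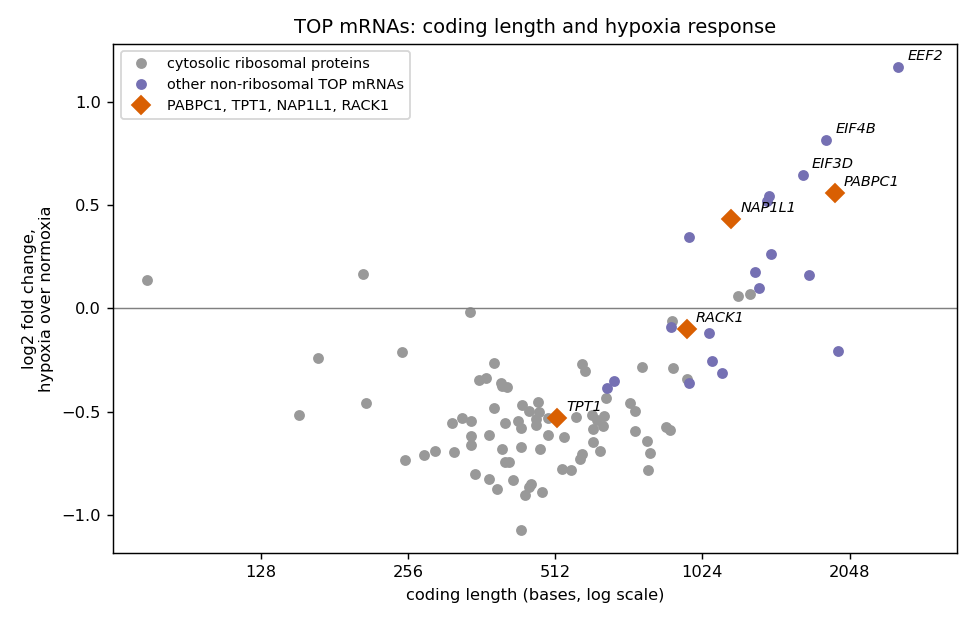
Log2 fold change, hypoxia over normoxia, against coding length on a log scale for TOP mRNAs: ribosomal proteins in grey, other non-ribosomal TOP mRNAs in violet, and PABPC1, TPT1, NAP1L1 and RACK1 as diamonds. TPT1 at 516 coding bases lies among the ribosomal proteins at -0.53, and PABPC1 at 1908 lies at 0.56, between EIF4B at 0.81 (1833 coding bases) and EEF1D at -0.21 (1941 coding bases).

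Levels were next compared between lines. Each line contrast rests on 2 libraries per line that differ in oxygen, with oxygen as a term in the model. SUM1315 against T47D passed for all 9 genes (69.2% of tested genes were called in either direction), SUM1315 against SKBR3 for 6 of 9 (69.8%), and SKBR3 against T47D for 2 of 9 (57.9%). Other scalings gave 6 or 7 for SUM1315 against SKBR3, where LARP1B joined by median-ratio scaling and quantile normalization, and 2 or 3 for SKBR3 against T47D. PABPC1 averaged 160 RPKM over the hypoxic and normoxic libraries of SUM1315, 28.5 RPKM in SKBR3 and 28.4 RPKM in T47D. SUM1315 was higher than SKBR3 by 2.39 ± 0.21 on the log2 scale (adjusted p = 4.10e-06) and higher than T47D by 2.42 ± 0.21 (adjusted p = 4.17e-06), while SKBR3 and T47D could not be told apart (0.04 ± 0.21, adjusted p = 0.89). RACK1 had the same order, at means of 305 RPKM in SUM1315, 93.7 RPKM in SKBR3 and 84.5 RPKM in T47D. Its SKBR3 against T47D contrast did not pass with limma (adjusted p = 0.55). For PABPC4, NAP1L1 and TPT1, SUM1315 was again highest (means of 19.4, 37.3 and 164 RPKM). Their SKBR3 against T47D contrasts did not pass with limma (adjusted p = 0.17, 0.28 and 0.19). The TPT1 difference between SUM1315 and T47D missed the threshold with no filter and with no oxygen term (adjusted p = 0.051 in both). The lines were grown in different media, with insulin and EGF for SUM1315, insulin for T47D and neither listed for SKBR3, so line and medium cannot be told apart.

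The La-related genes had other orders. LARP1 did not pass with limma between SUM1315 and SKBR3 (means of 26.9 and 22.4 RPKM, log2 difference 0.27 ± 0.18, adjusted p = 0.21). It was lower in T47D (12.2 RPKM), which SKBR3 exceeded by 0.81 ± 0.18 (adjusted p = 0.0038). LARP1B also was lowest in T47D (mean of 0.969 RPKM, against 2.47 RPKM in SKBR3), with SKBR3 higher by 0.81 ± 0.14 (adjusted p = 0.00075). At this low level the size depends on the pseudocount. The SKBR3 against T47D difference of LARP1B was 1.26 with a pseudocount of 0.1 and 0.32 with 5. For LARP1 it was 0.85 and 0.66. LARP4 was higher in SUM1315 than in T47D by 0.55 ± 0.15 (adjusted p = 0.0085), with SKBR3 between them and passing neither test, though SUM1315 stood just below SKBR3 by median-ratio scaling (-0.0092) and quantile normalization (-0.0083). Quantile normalization also ended the SUM1315 against T47D call of LARP4 (adjusted p = 0.055). SKBR3 was called above T47D for LARP4 as TPM (0.51, adjusted p = 0.036) and by median-ratio scaling (0.40, adjusted p = 0.039). LARP4B was the 1 gene of the 9 that was lowest in SUM1315, below SKBR3 by 0.58 (SE 0.16, adjusted p = 0.0090) and below T47D by 0.64 (SE 0.16, adjusted p = 0.0053).

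Over the 6 libraries, the genes most like each of the 9 were sought among 3906 tested genes with a mean of at least 10 RPKM, by Pearson correlation of log2(RPKM + 1). NAP1L1 and PABPC4 were each other's closest match (r = 0.999), followed by NMB for NAP1L1 (0.994) and the TGF-beta-induced transcription factor gene KLF10 for PABPC4 (0.991). PABPC1 was closest to HEIH (0.996) and KLF6 (0.994), LARP1 to TEX30 (0.994) and the dystroglycan gene DAG1 (0.991), and LARP4 to TRMT2A (0.995) and TEX30 (0.994). LARP1B was closest to UQCC1 (0.998) and ZNF146 (0.996), LARP4B to MMGT1 (0.999) and TOR3A (0.998), TPT1 to CRTAP (0.998) and YWHAH (0.993), and RACK1 to ANKRD40 (1.00) and ACOT13 (0.999). The 6 points share 3 cell lines, and the values describe these libraries.

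Genes that act on LARP1 and on the TOP end were set beside the 9 genes. Of 14 mTORC1 and LARP1 signalling genes 1 rose, none fell and 13 did not pass, with a median of 0.10. Of all genes tested 4.12% rose and 2.26% fell. The riser of the 14 was DDIT4, which restrains mTORC1 under hypoxia, at 3.60 ± 0.17 (adjusted p = 1.05e-05). RPTOR, the mTORC1 subunit that recruits substrates, had 0.48 ± 0.15 (adjusted p = 0.080), the kinase MTOR 0.05 ± 0.12 (adjusted p = 0.83, and -0.03 after quantile normalization) and the translation repressor EIF4EBP1 0.51 ± 0.21 (adjusted p = 0.16). EIF4EBP1 was at 0.18 without T47D, and RPTOR at 0.28 without SUM1315. Of 7 other proteins reported to bind TOP or pyrimidine-rich mRNAs none passed with limma (2, TIAL1 and ELAVL1, had an unadjusted p under 0.05, against 26.3% of all genes tested), with a median of -0.19. They ranged from -0.56 ± 0.16 for ELAVL1 (adjusted p = 0.062) to 0.13 ± 0.16 for PCBP2 (adjusted p = 0.63). ELAVL1 passed with the 5 RPKM filter (adjusted p = 0.042) and without SUM1315 (-0.69, adjusted p = 0.044), and its adjusted p lay between 0.042 and 1.00 over the alternatives.

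Of 3 other La-related genes 2 were tested and neither passed: SSB, which encodes the La protein itself, had 0.26 ± 0.14 (adjusted p = 0.26), and LARP7, which binds the 7SK RNA, had -0.21 ± 0.13 (adjusted p = 0.32). LARP6, which binds collagen mRNAs, was at 19.5 (hypoxia) and 20.7 RPKM (normoxia) in SUM1315 and under 1 RPKM in the other lines. Of 9 other poly(A)-binding protein genes, 2 were tested and neither passed. These were the nuclear PABPN1 at -0.06 ± 0.16 (adjusted p = 0.84) and ZC3H14 at -0.07 ± 0.11 (adjusted p = 0.72).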

How the data were processed

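Polysome RNA from 6 libraries was analysed, 1 for each of 3 cell lines at each of 2 oxygen levels. The deposited values are RPKM per gene, a unit read from the values themselves, made by the authors with Trimmomatic, HISAT2, SAMtools and Partek on GRCh38, per the submitters' processing notes. The sources used here do not give versions, the gene annotation or the strand setting of the counting. RPKM keeps shares of a library, so a class that takes a smaller share raises all others slightly.

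Tests used limma 3.58.1 in R 4.3.3 on log2(RPKM + 1), with cell line as a block and a mean-variance trend, over the 10253 genes that reached 1 RPKM in 3 or more libraries. P-values were adjusted by Benjamini-Hochberg over all of them, and calls had an adjusted p under 0.05. With 2 residual degrees of freedom, the spread of each gene leaned on all genes (8.02 prior degrees of freedom). The 3 lines served as replicates, since no line was repeated, so p-values speak of these lines. Line contrasts came from the same model. The libraries of a line deviated together from the group means (correlations 0.936 to 0.969), and the pairing comes from the shared cell line. The fit was also run on simulated data with known changes and noise drawn independently for each library. Its outcome is not given here, and it cannot vouch for the calls in these data.

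Loci and coding lengths were taken from GENCODE 29, with the principal transcript of each gene. Which transcript these cells used was not measured, so the coding lengths of genes such as EEF1D may differ in them. Start sites came from RefSeq GRCh38.p14, in which 7 of the 9 genes were matched by symbol. The members and lists were chosen with earlier results of these data known. Of each list the text names up to 2 genes that rose most and 2 that fell most among those passing, or else the highest and lowest, besides DDIT4, MTOR, RPTOR, EIF4EBP1, NAP1L4 and SSB. EIF3D, RPL3, RPL4 and LARP6 were named after their values were seen. Alternatives covered the pseudocount, the filter, 4 scalings, the block, the trend, limma's robust option and leaving out each line.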

Additional observations from a re-analysis of the deposited data

Results flagged for a closer look

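RACK1 was the 1 gene of the 9 whose log2 ratio of hypoxia over normoxia differed in sign between lines. The ratio was -0.04 in SUM1315, -0.32 in SKBR3 and 0.05 in T47D, a span of 0.371 between the highest and the lowest line. Each line has a single pair of libraries, and this difference was not tested. Mixed signs were common, since 23.5% of tested genes were above 0 and 25.2% below 0 in all 3 lines. The ratios of PABPC1, PABPC4, TPT1 and LARP1 spanned more between lines than those of RACK1. The antisense gene CTC-338M12.4 reached 4.57% of RACK1 in hypoxic T47D, and its part in the ratio was not tested.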

How the results depend on the processing

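Of the 9 genes none was called lower under any alternative run. The count called higher, 0 of 9, was 1 (PABPC4) with a 5 RPKM filter and 0 to 2 when a line was left out, 2 (PABPC1 and PABPC4) without SKBR3. RACK1 lay between -0.18 and 0.0063 with a line left out. Over all genes, 422 were higher and 232 lower in hypoxia, against 171 and 72 with a pseudocount of 5, and 0 and 0 with no filter (2715 at an unadjusted p under 0.05). Without the cell line block, which the pairing calls for, 0 and 0 were called (68 unadjusted). Leaving out a line gave 179 to 552 higher and 53 to 271 lower, fewest without T47D. The share of calls that were higher, 64.5%, was 52.1% after rescaling without ribosomal protein genes, 49.5% with a 5 RPKM filter (293 higher, 299 lower) and 77.2% without T47D.

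Ribosomal protein mRNAs that fell, 31 of 79, were 11 with a pseudocount of 5, 19 after quantile normalization and 0 with no filter or no block. The median of the other La-related genes was 0.26 with a 5 RPKM filter and -0.022 without ribosomal protein genes in the scaling. The CCR4-NOT median was 0.20 and 0.049 with pseudocounts of 0.1 and 5, -0.070 with a 5 RPKM filter, 0.17 as TPM, 0.068 after quantile normalization, 0.090 without ribosomal protein genes and 0.067 to 0.14 with a line left out. The other non-ribosomal TOP median was 0.050 to 0.16 with a line left out. The histone chaperone median was -0.10 with a pseudocount of 5, -0.081 with no filter, -0.37 with a 5 RPKM filter and -0.21 without ribosomal protein genes. SKBR3 against T47D called 1 gene with a 5 RPKM filter and 3 as TPM or by median-ratio scaling.

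Small values changed sign: MTOR (-0.025) and PABPN1 (8.39e-05) after quantile normalization, PABPN1 between -0.20 and 0.037 and PCBP2 between -0.013 and 0.23 with a line left out, LARP4 in SUM1315 against SKBR3 by median-ratio scaling (-0.0092) and quantile normalization (-0.0083), and LARP4B in SKBR3 against T47D as TPM (0.027), by median-ratio scaling (0.0081) and without ribosomal protein genes (0.0025). The causes were not tested. The coding length correlation of 0.73 was 0.70 to 0.77 under its alternatives. The depth limits LARP1B most, and no cell line was repeated.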

Other observations

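The CCR4-NOT complex shortens the poly(A) tails that PABPC1 covers. Among 14 genes of the complex and of proteins that bind it, 2 rose, 1 fell and 11 did not pass, with a median of 0.12 on the log2 scale. Over all genes tested, 4.12% rose and 2.26% fell. BTG1, which links PABPC1 to the deadenylase, was at 45.2 (hypoxia) and 29.1 RPKM (normoxia) in SUM1315, 38.1 (hypoxia) and 21.0 RPKM (normoxia) in SKBR3, and 66.2 (hypoxia) and 39.1 RPKM (normoxia) in T47D, a log2 fold change of 0.73 ± 0.15 (limma adjusted p = 0.022). TNKS1BP1, a protein bound to the complex, rose by 0.60 ± 0.14 (adjusted p = 0.034). The subunit CNOT11 fell by 0.89 (SE 0.16, adjusted p = 0.013), with 19.5 (hypoxia) and 31.1 RPKM (normoxia) in SUM1315, 9.80 (hypoxia) and 18.3 RPKM (normoxia) in SKBR3, and 6.81 (hypoxia) and 16.7 RPKM (normoxia) in T47D. Without T47D none of these 3 passed (adjusted p = 0.059 for BTG1, 0.10 for TNKS1BP1 and 0.057 for CNOT11), and TNKS1BP1 also did not pass without SUM1315 (0.15), with a pseudocount of 5 (0.059) or after rescaling without ribosomal protein genes (0.052).

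Of 15 partners of poly(A)-binding protein 13 were tested, of which 1 rose, 0 fell and 12 missed the threshold, with a median of 0.11. The shares over all genes tested were 4.12% and 2.26%. The riser among the partners was PAIP2B, which displaces poly(A)-binding protein from tails, at 0.48 ± 0.12 (adjusted p = 0.046). It did not pass when any of the 3 lines was left out (adjusted p 0.073 to 0.17). PAIP2B also missed the threshold with a pseudocount of 5 (0.090), as TPM (0.055), by median-ratio scaling (0.055), after quantile normalization (0.11), without ribosomal protein genes in the scaling (0.066) and without the trend (0.058), and it kept its call with a pseudocount of 0.1 and the robust option. Of 10 histone chaperone genes set beside NAP1L1, NAP and SET family genes and also ASF1A among them, 8 were tested. None passed with limma, 2 had an unadjusted p under 0.05, against 26.3% of all genes tested, and the median was -0.16. They ranged from -0.52 ± 0.15 for ASF1A (adjusted p = 0.067, and 0.047 without SUM1315, where it was -0.68) to 0.09 ± 0.13 for TSPYL1 (adjusted p = 0.66).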
